A study of Mus musculus with 30 samples.

Results

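The 52 genes described here encode proteins of the sarcomere, the contractile unit of striated muscle, together with proteins that help to assemble it. They were listed by gene symbol in the platform annotation, with earlier results of these data known. All 52 had a probe set on the array, of 19938 genes measured. Each gene is represented by the brightest probe set that the annotation gives to that gene alone. The RNA was that of satellite cells, which are resident muscle stem cells, sorted from the hindlimb of mice. It was measured on 30 microarrays (Affymetrix Mouse Gene 1.0 ST) that make 10 groups of 3.

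Of the 10 groups, 6 came from wild-type C57BL6 mice. Their cells (VCAM cells) were sorted as VCAM+, with CD31-, CD45- and Sca1-positive cells left out. In mice of 2 to 3 months, called young here, they were taken from uninjured muscle, which gives quiescent satellite cells (QSCs), and 36, 60 and 84 h after injury with BaCl2, which gives activated satellite cells (ASCs). In mice of 22 to 24 months, called old here, they were taken from uninjured muscle and 60 h after injury. The other 4 groups came from young Pax7CreER/+;ROSA26eYFP/+ mice given Tamoxifen, in which cells that expressed Pax7, and their progeny, carry YFP. YFP-positive cells were taken from uninjured muscle and at the same 3 times after injury (YFP cells). The sort, the genotype and Tamoxifen cannot be told apart between VCAM and YFP cells. Neither the number of animals behind an array nor whether the 3 arrays of a group came from separate animals is stated, so the p-values measure the spread between arrays, which may be technical.

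A sarcomere is built from thick filaments of myosin and thin filaments of actin, which slide past each other when calcium binds troponin. The filaments are anchored at Z discs and M bands and are spanned by the giant proteins titin and nebulin. Most of these proteins have isoforms from separate genes. Embryonic, perinatal or cardiac isoforms are used in developing and regenerating fibres and are later replaced by the fast or slow isoforms of adult fibres. Satellite cells lie on the fibre outside its contractile apparatus, and their progeny build sarcomeres when they differentiate and fuse after injury.

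The time course compares uninjured muscle with 3 times after injury. The members Ttn, Myh3 and Klhl41 rose furthest from QSCs to 84 h in young VCAM cells, and the 250 bases before their annotated starts are shown for that reason. The sequences are RefSeq's, from assembly GRCm38.p6, each printed in the direction of transcription. Capitals mark every match to CANNTG (the E-box bound by factors of the MyoD family), TATAAA, the MEF2 site and the CArG box, searched on both strands.
Ttn, chr2:76982548-76982797, minus strand: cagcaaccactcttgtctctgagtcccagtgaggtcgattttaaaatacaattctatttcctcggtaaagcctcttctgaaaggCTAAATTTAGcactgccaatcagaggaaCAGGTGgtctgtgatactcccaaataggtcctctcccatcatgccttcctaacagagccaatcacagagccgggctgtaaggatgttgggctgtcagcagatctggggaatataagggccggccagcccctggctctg
Myh3, chr11:67078050-67078299, plus strand: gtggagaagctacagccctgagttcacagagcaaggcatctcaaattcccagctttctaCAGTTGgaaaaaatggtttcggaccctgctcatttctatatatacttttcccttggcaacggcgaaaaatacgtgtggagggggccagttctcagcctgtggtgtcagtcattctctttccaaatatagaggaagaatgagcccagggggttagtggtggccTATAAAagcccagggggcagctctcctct
Klhl41, chr2:69669870-69670119, plus strand: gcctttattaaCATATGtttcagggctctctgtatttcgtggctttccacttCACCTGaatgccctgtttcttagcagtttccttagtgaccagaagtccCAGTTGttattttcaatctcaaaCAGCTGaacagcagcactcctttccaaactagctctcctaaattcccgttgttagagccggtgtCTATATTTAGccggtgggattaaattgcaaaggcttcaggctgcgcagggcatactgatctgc
The Ttn stretch held 1 CANNTG and 1 MEF2 site, the Myh3 stretch 1 CANNTG and a TATAAA that begins 29 bases before the start, and the Klhl41 stretch 4 CANNTG and 1 MEF2 site. One of the 4 in Klhl41 reads CAGCTG.

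Of the 52 members 41 had an entry in the promoter table. Over windows from 250 bases before to 50 after a start, these had 47 windows and all genes 32851. A gene with several starts had several windows, which can overlap, as do those of Ldb3, each with a CArG box. A CANNTG was found in 83% of the members' windows and in 72.3% of all windows. CAGCTG, which is also a CANNTG, was found in 42.6% against 16.3%, TATAAA in 25.5% against 13.6%, the MEF2 site in 14.9% against 3.19% and the CArG box in 14.9% against 1.63%. In the 27 windows of members that were higher at 84 h in VCAM cells, CAGCTG was found in 48.1% and the CArG box in 7.41%. In the 10 windows of members that were called in no comparison, the shares were 30% and 20%. The 27 windows came from 25 genes and the 10 from 8, and the CArG box was in 2 windows of each set. The other motifs differed less between these 2 sets. CANNTG was found in 85.2% and 90%, TATAAA in 33.3% and 30%, and the MEF2 site in 18.5% and 20%. These are matches of letters, given as a description.

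Values are log2 intensities, in which a difference of 1 is a factor of 2, and they are compared between groups for a gene and not between genes. A gene was called where limma gave a Benjamini-Hochberg adjusted p under 0.05 over all 19938 genes, two-sided, with a fold change of at least 1.5. Adjusted p values below are from that test. Errors are SDs over the 3 arrays of a group, or standard errors (SE) of a difference. In sorted cells measured in bulk, fewer cells of a type and less RNA per cell cannot be told apart.

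The cells carried satellite cell transcripts in all groups, with Pax7, the transcription factor that defines the lineage, at 11.68 in young VCAM QSCs and 8.95 at its lowest, at 36 h. Of 12 satellite cell markers 10 were called lower and 1 higher at 84 h in VCAM cells, beside 11.2% and 16.4% of all genes. Calcr, 1 of them, was at 12.03 in VCAM QSCs and 6.89 at 60 h. Transcripts of other cells were also present, in spite of the sort. The mean over 12 macrophage markers was 6.39 to 6.47 on the arrays of young VCAM QSCs, 9.98 to 10.11 at 36 h, 7.97 to 8.10 at 60 h and 8.81 to 8.86 at 84 h, and all 12 were called higher than in QSCs at each time in both sorts. Of 12 smooth muscle and pericyte markers 8 were called lower at 84 h than in VCAM QSCs, as were 8 of 10 endothelial markers. Pvalb, a gene of mature fast fibres, stayed between 5.82 and 6.62 as a group mean in all 10 groups. Other fibre genes went both ways in VCAM cells. Pygm was at 10.42 in QSCs and 8.06 at 36 h, and Atp2a1 at 9.98 and 8.26. Eno3 was at 8.03 in QSCs and 10.35 at 36 h, and Ampd1 at 6.72 and 7.56. In a list of 18 fibre genes outside the members, 2 were called higher and 3 lower at 36 h in VCAM cells. The shares of all genes were 13.2% and 9.72%. The part of these transcripts in the members' changes was not tested.

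By 84 h most sarcomere genes were higher than in QSCs, in both sorts. In young VCAM cells 31 of the 52 members were called higher, against 16.4% of all genes, and 3 lower, against 11.2%. In young YFP cells 36 were called higher, against 17% of all genes, and 1 lower, against 11.2%. All 31 called higher in VCAM cells were among the 36 of YFP cells, which added Actn2, Actn3, Ldb3, Myom1 and Smpx. The median change of the members was 1.05 in VCAM and 1.67 in YFP cells, beside -0.03 and -0.08 for all genes. Without the fold threshold 37 were higher and 3 lower in VCAM cells, where 30.4% of all genes were higher and 30.4% lower, and 38 and 4 in YFP cells, where 30.1% and 34.1% were.

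Earlier the members moved in both directions. At 36 h 5 of 52 were called higher and 8 lower in VCAM cells, where 13.2% and 9.72% of all genes were called, and 4 and 4 in YFP cells, where 10.1% and 6.14% were. By adjusted p alone, the counts were 11 and 16 in VCAM cells, beside 28% and 27.9% of all genes, and 11 and 14 in YFP cells, beside 24% and 25%. At 60 h the counts were 17 higher and 5 lower in each sort, beside 16.6% and 12.6% of all genes in VCAM and 17.2% and 12.8% in YFP cells. At any fold change, 21 and 14 members were called in VCAM cells (29.4% and 30.3% of all genes) and 25 and 11 in YFP cells (30.5% and 31.1%). Both sorts shared 14 of the members called higher at 60 h and all 5 of those called lower. From 36 to 60 h 16 members rose and 1 fell in VCAM cells (6.26% and 8.49% of all genes), and 17 rose and 2 fell in YFP cells (8.73% and 8.58%). Without the fold threshold the counts were 27 and 4 (26.8% and 20.4%) and 25 and 8 (29.5% and 22.3%). The step from 60 to 84 h had 32 rises in VCAM cells, where 3.22% of all genes rose and 0.732% fell, and 37 in YFP cells, where 4.66% rose and 2.19% fell. By adjusted p alone, 41 members rose and 1 fell in VCAM cells (14.6% and 13.4% of all genes), and 43 rose and 3 fell in YFP cells (18.3% and 20.8%).

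**Figure D1:**
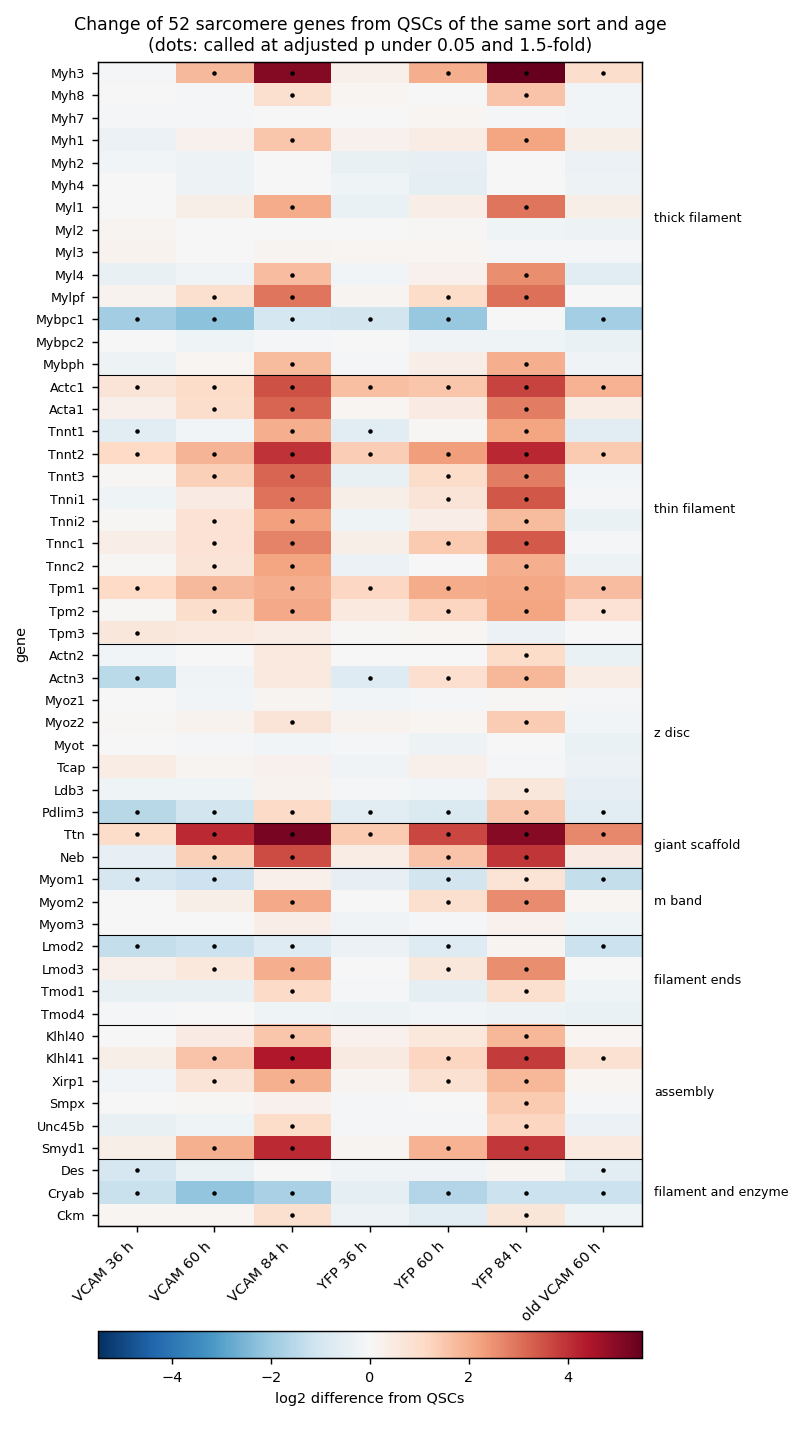
Heat map of the log2 difference from QSCs of the same sort and age (colour, red higher and blue lower) for the 52 members (rows, grouped by role) in 7 groups of activated cells (columns), with a dot where the difference was called. Thin filament genes were called higher at 84 h in 11 of 12 cases in both sorts, beside 16.4% (VCAM) and 17% (YFP) of all genes. The row of Ttn is dark from 60 h on.

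The members rose at different times. A total of 4 were called higher than QSCs from 36 h through 84 h in both sorts, namely Actc1, Tnnt2, Tpm1 and Ttn. Another 13 of VCAM cells were called higher from 60 h on and 14 called higher at 84 h alone. In YFP cells these counts were 13 and 19, with 10 and 12 members in the same class in both sorts. The share of all genes in each of these classes was not counted. At 36 h alone, 13.2% of all genes were called higher in VCAM and 10.1% in YFP cells. The 10 that began at 60 h in both sorts were Myh3, Mylpf, Tnnt3, Tnnc1, Tpm2, Neb, Lmod3, Klhl41, Xirp1 and Smyd1. The 12 that were called higher at 84 h alone in both were Myh8, Myh1, Myl1, Myl4, Tnnt1, Mybph, Myoz2, Pdlim3, Tmod1, Klhl40, Unc45b and Ckm. Among them Tnnt1 had been called lower at 36 h, and Pdlim3 at 36 and 60 h, in both sorts. Some onsets at 60 h rested on 1 array, since in VCAM cells Lmod3 was not called without QSC array 3 (0.58) or 60 h array 2 (0.57), Tnnc2 not without QSC array 2 (0.58) and Xirp1 not without that array (0.57). In YFP cells Lmod3 was not called without 60 h array 2 (0.55), nor Tnni1 without QSC array 2 (0.56).

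Titin, the giant protein that spans the sarcomere from Z disc to M band and serves as its template, had the largest rise of the members in VCAM cells. Ttn was at 6.89, 6.82 and 6.83 on the arrays of VCAM QSCs, at 7.85, 7.85 and 7.93 at 36 h, at 10.89, 10.93 and 11.01 at 60 h and at 12.07, 12.09 and 12.11 at 84 h. The groups did not overlap at any step. The difference from QSCs was 1.03 at 36 h, 4.10 at 60 h and 5.24 at 84 h, the last with an SE of 0.05, a 37.9-fold change and a limma adjusted p of 5.7e-30. In YFP cells Ttn went from a mean of 7.19 ± 0.10 to 8.63 ± 0.03, 10.87 ± 0.04 and 12.21 ± 0.01 (SD, n = 3). From 36 to 60 h it rose by 3.07 in VCAM and 2.25 in YFP cells. Neb, which encodes nebulin, the giant protein that runs along the thin filament, was at 7.20 in VCAM QSCs, 6.75 at 36 h, 8.52 at 60 h and 10.78 at 84 h. Its 84 h arrays, at 10.81, 10.76 and 10.78, lay above all earlier ones, and its change of 3.58 from QSCs was 12-fold.

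Among the myosin heavy chains, the motors of the thick filament, 3 of 6 genes were called higher at 84 h in each sort. Of all genes 16.4% were in VCAM and 17% in YFP cells. Only Myh3 of the 3 was called by 60 h. Myh3, the embryonic isoform, was at 6.11, 5.94 and 6.07 in VCAM QSCs and at 5.90, 5.94 and 5.98 at 36 h, which overlap. It reached 7.69, 7.86 and 7.98 at 60 h and 11.10, 11.06 and 11.07 at 84 h. The measured change from QSCs was 5.04 (SE 0.08), or 32.8-fold, with a limma adjusted p of 3.1e-26. In YFP cells it was at 6.08, 5.84 and 5.86 in QSCs and at 11.41, 11.49 and 11.33 at 84 h, a 44.7-fold change.

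Myh8, the perinatal heavy chain, came later and rose less. It was at 6.70, 6.67 and 6.60 in VCAM QSCs, at 6.88, 6.42 and 6.49 at 60 h and at 7.48, 7.49 and 7.62 at 84 h, when it was 1.83-fold higher than in QSCs (limma adjusted p = 2.5e-09). In YFP cells its 84 h values of 8.15, 8.27 and 8.23 were higher than in QSCs by 1.58. Myh1, an adult fast isoform, went from 6.43, 6.70 and 6.46 in VCAM QSCs to 7.92, 8.31 and 7.97 at 84 h, a rise of 1.53 (SE 0.12). In YFP cells it went from 6.26, 6.24 and 6.47 to 8.45, 8.66 and 8.38, a rise of 2.17.

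The other adult heavy chains were called in none of the 19 comparisons. Myh2, of fast oxidative fibres, was at 5.81, 5.78 and 6.06 in VCAM QSCs and at 5.91, 5.83 and 5.85 at 84 h. Myh4, of the fastest fibres, was at 5.97, 6.01 and 6.10 and then at 6.05, 5.97 and 6.05. Myh7, of slow fibres and the heart, was at 6.64, 6.45 and 6.40 and then at 6.37, 6.50 and 6.47. For each of these 3 the QSC and 84 h arrays overlapped. Over the 10 groups the means ranged from 5.59 to 6.02 for Myh2, 5.74 to 6.26 for Myh4 and 6.30 to 6.50 for Myh7. The heavy chain genes are closely alike in sequence, as are Actc1 and Acta1, and how far their probes tell them apart was not tested. Of the 31 members called higher at 84 h in VCAM cells, 13 had a mean under 7 in QSCs, Myh3, Myh8 and Myh1 among them. No detection calls were used, so whether such genes lay above background in QSCs is not known, and their fold changes are between measured intensities.

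**Figure D2:**
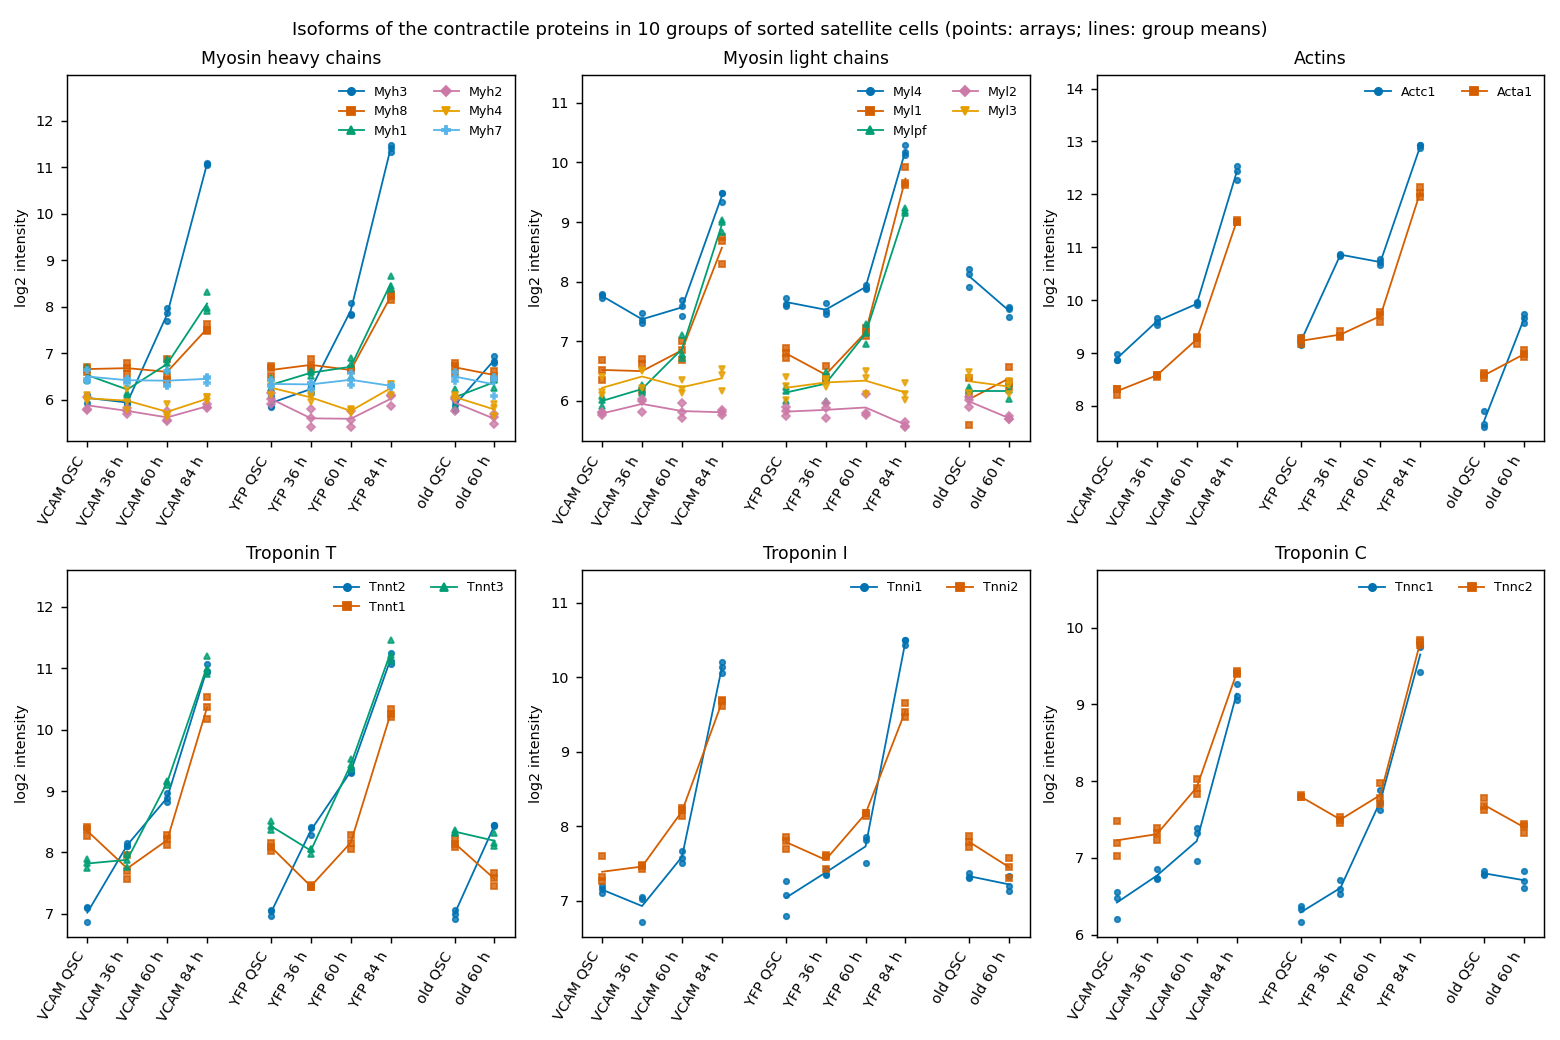
Log2 intensity (vertical axes) of isoforms of 6 contractile protein families in the 10 groups (horizontal axes), with a point for each array and lines through group means. Myh3 reaches 11.08 in VCAM and 11.41 in YFP cells at 84 h, while the means of Myh2, Myh4 and Myh7 stay between 5.59 and 6.50 in every group.

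The myosin light chains divided in the same manner, with 3 of 5 called higher at 84 h in each sort. The shares of all genes were 16.4% in VCAM and 17% in YFP cells. Myl4, the embryonic and atrial essential light chain, was at 7.78, 7.80 and 7.72 in VCAM QSCs and at 9.34, 9.49 and 9.49 at 84 h, a 3.2-fold change. Myl1, the fast essential light chain, was at 6.35, 6.69 and 6.52 and then at 8.75, 8.68 and 8.29, a 4.16-fold change. In YFP cells Myl1 ended higher, at 9.65, 9.92 and 9.63. Mylpf, the fast regulatory light chain, began earlier, at 1.83-fold above QSCs by 60 h, and was 7.77-fold above them at 84 h. Myl2 and Myl3, of slow fibres and the ventricle, were not called in any comparison, with group means of 5.60 to 5.99 and 6.14 to 6.41.

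In the thin filament, 11 of 12 genes were called higher at 84 h in each sort, with Tpm3 as the exception. The shares of all genes were 16.4% in VCAM and 17% in YFP cells. Cardiac actin, which is the main actin of developing skeletal muscle, was among the earliest. Actc1 was at 8.86, 8.98 and 8.86 in VCAM QSCs, 9.66, 9.54 and 9.59 at 36 h, 9.90, 9.97 and 9.94 at 60 h and 12.45, 12.28 and 12.53 at 84 h. The rise at 36 h, of 0.69, was no longer called with quantile normalization (0.57). In YFP cells Actc1 was at 9.15, 9.31 and 9.18 in QSCs and already at 10.86, 10.84 and 10.87 at 36 h, a rise of 1.64. Acta1, the actin of adult skeletal muscle, was at 8.32, 8.20 and 8.32 in VCAM QSCs, 8.59, 8.59 and 8.54 at 36 h, 9.31, 9.29 and 9.17 at 60 h and 11.48, 11.47 and 11.52 at 84 h. Its change at 84 h was 9.25-fold, beside 11.5-fold for Actc1.

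All 7 troponin genes were called higher at 84 h in both sorts, beside 16.4% of all genes in VCAM and 17% in YFP cells. Tnnt2, the cardiac troponin T, which anchors the complex on tropomyosin and is used in embryonic muscle, led in time. Its VCAM arrays were at 7.09, 6.86 and 7.11 in QSCs, 8.10, 8.11 and 8.15 at 36 h, 8.82, 8.96 and 8.89 at 60 h and 11.07, 10.94 and 10.95 at 84 h, a 15.7-fold change in all. Tnnt3, the fast troponin T, did not overlap with QSCs from 60 h, at 9.15, 9.16 and 9.10 after 7.82, 7.89 and 7.74, and reached 11.20, 10.98 and 10.91. Tnnt1, the slow form, first fell by 0.62 at 36 h, from 8.26, 8.42 and 8.38 to 7.96, 7.70 and 7.56, and then reached 10.53, 10.37 and 10.18 at 84 h.

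Troponin I inhibits contraction at rest, and troponin C binds the calcium that relieves it. Tnni1, the slow form that is also expressed in developing muscle, was at 7.20, 7.10 and 7.16 in VCAM QSCs and at 10.14, 10.05 and 10.21 at 84 h, a 7.89-fold change. The fast form Tnni2 was at 7.60, 7.26 and 7.32 and then at 9.61, 9.68 and 9.69, a 4.83-fold change. Tnnc1, the slow and cardiac troponin C, went from 6.56, 6.21 and 6.48 to 9.11, 9.06 and 9.26, and Tnnc2, the fast form, from 7.20, 7.02 and 7.48 to 9.40, 9.43 and 9.41. These are 6.62-fold and 4.53-fold changes, with no overlap between QSCs and 84 h.

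Tropomyosins lie along the thin filament, and their genes also give isoforms of non-muscle cells. Tpm1 rose early and levelled off, with VCAM means of 10.09, 11.20, 11.88 and 12.07 in QSCs and at 36, 60 and 84 h. Tpm2 rose later, with means of 8.38, 8.43, 9.34 and 10.45. Tpm3 was called higher in VCAM cells at 36 h, by 0.61, and not at 60 h (0.54). With arrays centred on their medians it was called at 60 h (0.62) and not at 36 h (0.58), and with its 4 probe sets averaged it was not called at 36 h (0.53). Tmod1, which caps thin filaments, rose by 1.04 at 84 h on the probe set used, while its other probe set changed by -0.19.

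Whether developmental and adult isoforms, or slow and fast ones, moved by the same amount was measured in pairs. For each pair the difference between both genes on each array was taken, from QSCs to 84 h. All 5 members that are developmental isoforms (Myh3, Myh8, Myl4, Actc1 and Tnnt2) were called higher at 84 h in each sort, with median changes of 3.52 in VCAM and 3.70 in YFP cells. Of 11 fast isoforms 6 were called higher in VCAM and 7 in YFP cells, with medians of 1.53 and 1.81. Of 8 slow isoforms 4 were called higher in each sort, with medians of 0.44 and 0.70. Among all genes 16.4% were called higher at 84 h in VCAM and 17% in YFP cells. In VCAM cells Mybpc1 was the slow isoform called lower.

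Myh3 minus Myh1 was at -0.32, -0.76 and -0.39 in VCAM QSCs and at 3.17, 2.76 and 3.10 at 84 h, a shift of 3.50 (SE 0.19). The shift in YFP cells was 3.31 (SE 0.13). Both genes were under 7 in QSCs, near the level of the heavy chains that were called in no comparison, and where these lay at background the size of the shift is set by that background. Tnnc1 and Myl1, each in a pair below, were also under 7 in QSCs. Actc1 minus Acta1 went from 0.54, 0.78 and 0.54 to 0.98, 0.80 and 1.01 in VCAM cells, a shift of 0.31 (SE 0.10), and by 0.89 (SE 0.09) in YFP cells. Both actins thus rose several-fold, with the larger rise in Actc1.

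The differences of the troponin pairs also rose, but only Tnnt2 minus Tnnt3 holds a gene listed here as a developmental isoform. The pairs of troponin I and troponin C were listed as slow against fast. Since Tnni1 is also expressed in developing muscle, its pair does not tell slow from developmental use. Tnnt2 minus Tnnt3 moved by 0.76 (SE 0.13) in VCAM and 1.30 (SE 0.15) in YFP cells, Tnni1 minus Tnni2 by 0.71 (SE 0.10) and 1.67 (SE 0.15), and Tnnc1 minus Tnnc2 by 0.55 (SE 0.12) and 1.35 (SE 0.12). Myl4 minus Myl1 went the other way, by -0.38 (SE 0.20) in VCAM cells, where the arrays overlapped, and -0.39 (SE 0.10) in YFP cells. In an exact two-sided permutation test, 3 arrays against 3 give 20 arrangements and no p below 0.1. That value was reached by 11 of the 12 shifts, and the exception was Myl4 minus Myl1 in VCAM cells with an exact p of 0.2.

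Of the 6 members that assist assembly, 5 were called higher at 84 h in VCAM cells, beside 16.4% of all genes. In YFP cells all 6 were, beside 17% of all genes. Klhl41, a Kelch protein that stabilises nebulin, was at 6.36, 6.11 and 6.16 in VCAM QSCs, 6.79, 6.44 and 6.38 at 36 h, 7.68, 7.72 and 7.94 at 60 h and 10.61, 10.64 and 10.58 at 84 h. Its values at 36 h all lay above those in QSCs without a call, and the change at 84 h was 21.1-fold (limma adjusted p = 2.4e-23). Smyd1, a muscle methyltransferase that works with myosin chaperones, was at 5.87, 6.04 and 6.07 in VCAM QSCs, 7.96, 7.89 and 7.98 at 60 h and 10.15, 9.93 and 10.26 at 84 h. That is 3.87-fold and 17.4-fold above QSCs. Unc45b, the chaperone of myosin heads, was called at 84 h alone, 2.00-fold higher. Xirp1, an actin-binding protein of nascent myofibrils, was 1.62-fold higher at 60 h and 3.92-fold at 84 h, and Klhl40, another Kelch protein of nebulin, 2.86-fold at 84 h.

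Of 8 Z disc members 2 were called higher at 84 h in VCAM cells, where 16.4% of all genes were, and 5 in YFP cells, where 17% were. Myoz2, which ties calcineurin to the Z disc, was 1.65-fold higher at 84 h in VCAM cells, at 5.76, 5.75 and 6.17 against 5.04, 5.33 and 5.16 in QSCs, and was not called without the third of these 84 h arrays (0.58). Actn2, the Z disc alpha-actinin of all fibres, was called at 84 h in YFP cells alone, and the responses of the sorts differed by -0.48, which was not called. Myoz1, Myot and Tcap were called in no comparison. Of the M band proteins, Myom2 rose 4.19-fold in VCAM cells at 84 h and Myom3 was not called. The whole set of members with no call in any of the 19 comparisons had 11 genes, Myh7, Myh2, Myh4, Myl2, Myl3, Mybpc2, Myom3, Myoz1, Myot, Tcap and Tmod4.

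Some members fell on activation, at shares near those of all genes. In VCAM cells 8 of 52 were called lower at 36 h, beside 9.72% of all genes, namely Mybpc1, Pdlim3, Actn3, Lmod2, Cryab, Myom1, Des and Tnnt1. In YFP cells 4 of these were called lower, beside 6.14% of all genes, which were Mybpc1, Actn3, Tnnt1 and Pdlim3. Tnnt1 was not called in VCAM cells without QSC array 2 (-0.58) or 36 h array 3 (-0.53), nor Pdlim3 in YFP cells without QSC array 3 (-0.53). At 60 h the members called lower were Mybpc1, Cryab, Lmod2, Myom1 and Pdlim3 in both sorts, 5 of 52 beside 12.6% of all genes in VCAM and 12.8% in YFP cells. Smooth muscle and pericyte markers went the same way in VCAM cells, with 7 of 12 called lower at 36 h and a mean on the arrays of 9.56 to 9.63 in QSCs and 8.65 to 8.73 at 36 h. In YFP cells 1 of 12 was called lower at 36 h, with means of 8.70 to 8.73 and 8.80 to 8.82. Of 12 satellite cell markers 8 were called lower in VCAM cells at 36 h, with means of 12.06 to 12.11 in QSCs and 10.49 to 10.52 at 36 h, and 7 in YFP cells. The part of these markers' cells in the falls was not tested.

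Mybpc1, the slow myosin-binding protein C of the thick filament, was at 10.06, 10.08 and 10.20 in VCAM QSCs, 8.04, 8.23 and 8.32 at 36 h, 7.86, 7.76 and 7.97 at 60 h and 9.13, 9.09 and 9.21 at 84 h. It fell by 1.91 at 36 h (limma adjusted p = 2.4e-16) and was still 1.95-fold below QSCs at 84 h. In YFP cells it was at 9.54, 9.57 and 9.66 in QSCs, 7.30, 7.41 and 7.81 at 60 h and 9.55, 9.52 and 9.65 at 84 h, so that QSC and 84 h arrays overlapped. Cryab, a small heat shock protein of the Z disc and of the desmin network, fell further with time, from 11.57, 11.59 and 11.65 in VCAM QSCs to 10.35, 10.30 and 10.44 at 36 h and 9.39, 9.54 and 9.39 at 60 h, and was at 9.88, 9.72 and 9.83 at 84 h. It was the member called lower at 84 h in both sorts.

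Actn3, the alpha-actinin of fast fibres, dipped at 36 h and recovered. Its VCAM arrays were at 10.96, 10.93 and 11.04 in QSCs, 9.52, 9.45 and 9.54 at 36 h, 10.74, 10.79 and 10.81 at 60 h and 11.51, 11.48 and 11.49 at 84 h. YFP QSCs were lower to begin with, at 9.58, 9.56 and 9.72, and the later YFP arrays were at 8.88, 8.96 and 8.84, then 10.57, 10.53 and 10.59, then 11.43, 11.40 and 11.47. Pdlim3, a PDZ and LIM protein that binds alpha-actinin, also dipped, from 8.83, 8.82 and 8.98 in VCAM QSCs to 7.32, 7.23 and 7.56 at 36 h, and ended above its start at 9.91, 9.95 and 9.92. Des, the intermediate filament protein desmin, fell by 0.94 at 36 h in VCAM cells and was at 11.28, 11.25 and 11.33 at 84 h, beside 11.22, 11.26 and 11.28 in QSCs. Lmod2, which elongates thin filaments, fell by 1.31 at 36 h and was 1.65-fold below QSCs at 84 h in VCAM cells.

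**Figure D3:**
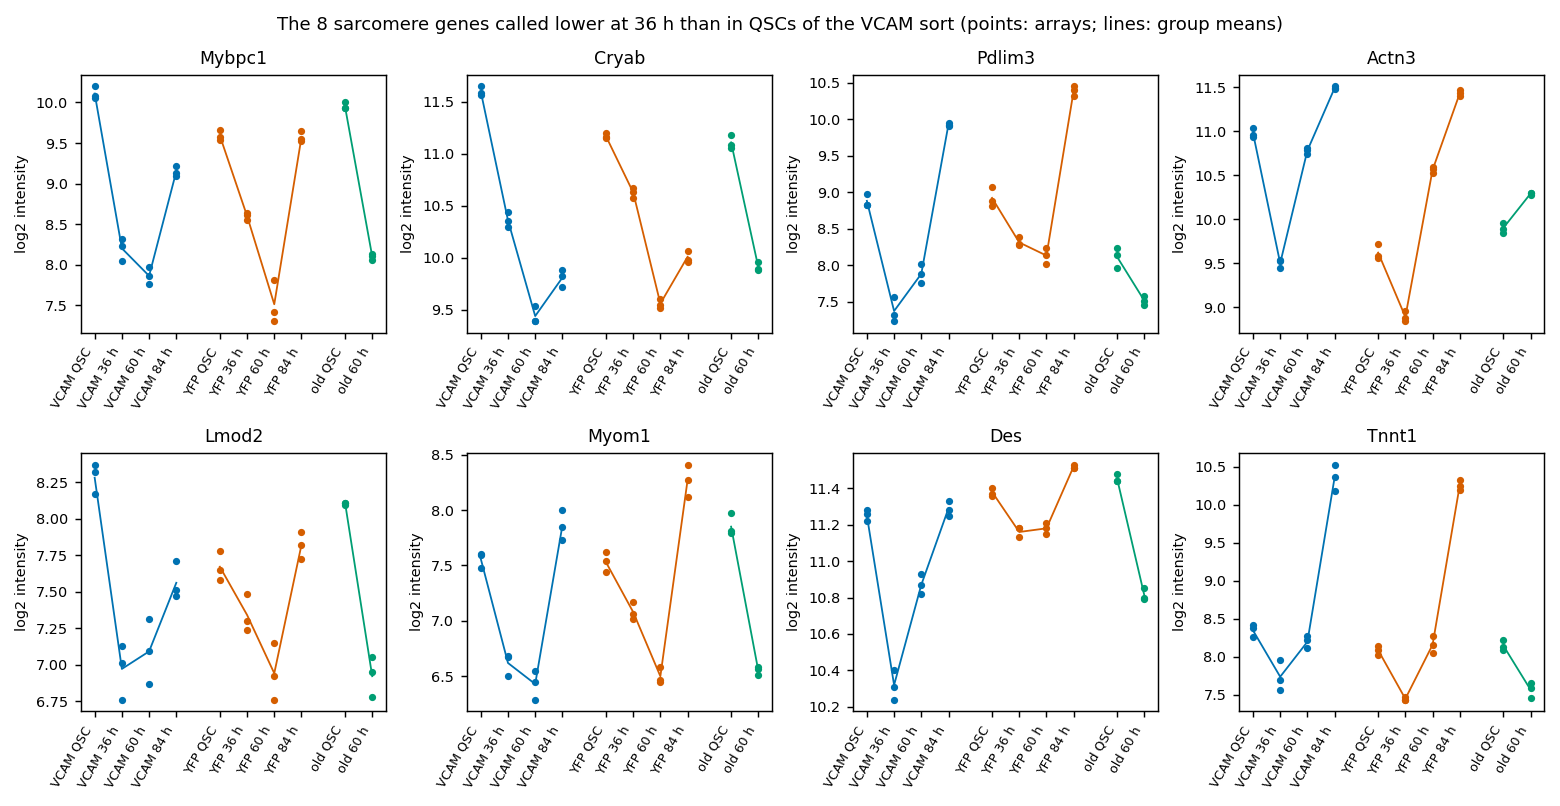
Log2 intensity (vertical axes, a separate range for each gene) of the 8 members called lower at 36 h in VCAM cells, with a point for each array and lines through group means for young VCAM, young YFP and old VCAM cells (horizontal axes). Actn3 and Pdlim3 end at 84 h above their QSC level in both sorts, whereas Cryab stays below it.

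The same times in both sorts asked whether cells chosen by surface proteins and cells labelled through Pax7 differ. In QSCs 2 members were called higher in VCAM than in YFP cells, where 1.74% of all genes were, and 4 lower, where 1.82% were. At any fold change, 6 were higher and 13 lower (15.2% and 14.8% of all genes). Actn3 was higher in VCAM cells by 1.36 (SE 0.05, limma adjusted p = 2e-17), with arrays of 10.93 to 11.04 against 9.56 to 9.72. Lmod2 was higher by 0.62, and not called with arrays centred on their medians (0.55) or without VCAM or YFP QSC array 2 (0.57 in both). Acta1, with a difference of -0.95, Klhl41, also with -0.95, Ckm with -0.65 and Tnnt3 with -0.62 were lower in VCAM cells, and Tnnt3 was not called without VCAM or YFP QSC array 3 (-0.58 in both). Of 12 smooth muscle and pericyte markers 6 were higher in VCAM QSCs, with means on the arrays of 9.56 to 9.63 against 8.70 to 8.73. Their part in these differences was not tested.

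At 36 h 8 members were called lower in VCAM than in YFP cells, beside 2.49% of all genes, and 1 higher, beside 2.78%. Without the fold threshold these were 23 and 4 (17.7% and 19.6% of all genes). Actc1 differed by -1.26, Neb by -1.15, Klhl41 by -1.10, Pdlim3 by -0.95, Des by -0.85, Acta1 and Tmod1 by -0.77 and Ttn by -0.75, while Actn3 was higher by 0.61. Tmod1 was not called with its probe sets averaged (-0.37), nor Actn3 without YFP 36 h array 3 (0.58). At that time all 10 endothelial markers were lower in VCAM cells, with means of 8.63 to 8.71 against 9.91 to 9.92, while 4 of 12 macrophage and 4 of 9 fibroblast markers were higher. Of 12 satellite cell markers 7 were lower, with means of 10.49 to 10.52 against 11.11 to 11.12. The part of these markers' cells in the members' differences was not tested. At 60 h 2 members were lower in VCAM cells (0.757% of all genes, with 0.557% higher), and 13 without the fold threshold, when 2 were higher (7.56% and 5.06% of all genes). The first 2 were Actc1, with a difference of -0.79, and Myom2, with -0.60, the second not called with arrays centred on their medians (-0.57) or on leaving out any 1 of 3 arrays (-0.58 to -0.57).

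At 84 h 8 members were called lower in VCAM than in YFP cells, beside 1.21% of all genes, of which 0.446% were higher. By adjusted p alone, 29 were lower and 2 higher (10.8% and 9.88% of all genes). The 8 were Smpx (-1.23), Myl1 (-1.16), Myl4 (-0.76), Myh8 (-0.69), Myoz2 (-0.68), Actn2 (-0.66), Neb (-0.64) and Lmod3 (-0.63). Actn2 was not called without VCAM 84 h array 3 (-0.55), nor Lmod3 without YFP 84 h array 3 (-0.57). Smpx, a small protein of the costameres, was at 4.99, 5.30 and 4.80 in VCAM cells and at 6.33, 6.05 and 6.40 in YFP cells, without overlap. The VCAM mean lay below the YFP mean for 40 of the 52 members at this time, and for 42.3% of all genes. Macrophage markers were lower in VCAM cells too, 8 of 12, with means of 8.81 to 8.86 against 9.55 to 9.59. Fibroblast markers were higher in VCAM cells, 4 of 9 with 0 lower, with means of 9.92 to 9.96 against 9.37 to 9.42. The part of these markers' cells in the members' differences was not tested. The means over 10 genes of myogenic factors, at 10.46 to 10.53 and 10.44 to 10.54, overlapped.

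Ttn, Myh3, Klhl41 and Smyd1, the members with the largest rises in VCAM cells, rose in both sorts. Their responses at 84 h, VCAM minus YFP, differed by 0.23, -0.45, 0.56 and 0.23, all below 1.5-fold. That of Klhl41 was called with arrays centred on their medians (0.63), with quantile normalization (0.62) and on leaving out any 1 of 3 arrays (0.59 to 0.65). Of the 52 responses, taken with their sign, 11 were called lower in VCAM cells, beside 3.84% of all genes, and 1 higher, beside 2.71%. At any fold change, these were 21 and 6 (13.9% and 13.5%). The 11 include Mybpc1, Lmod2 and Cryab, which were called lower at 84 h than in VCAM QSCs. Actn3 differed most, by -1.29, and Myl1 and Myl4 by -0.88 and -0.86.

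**Figure D4:**
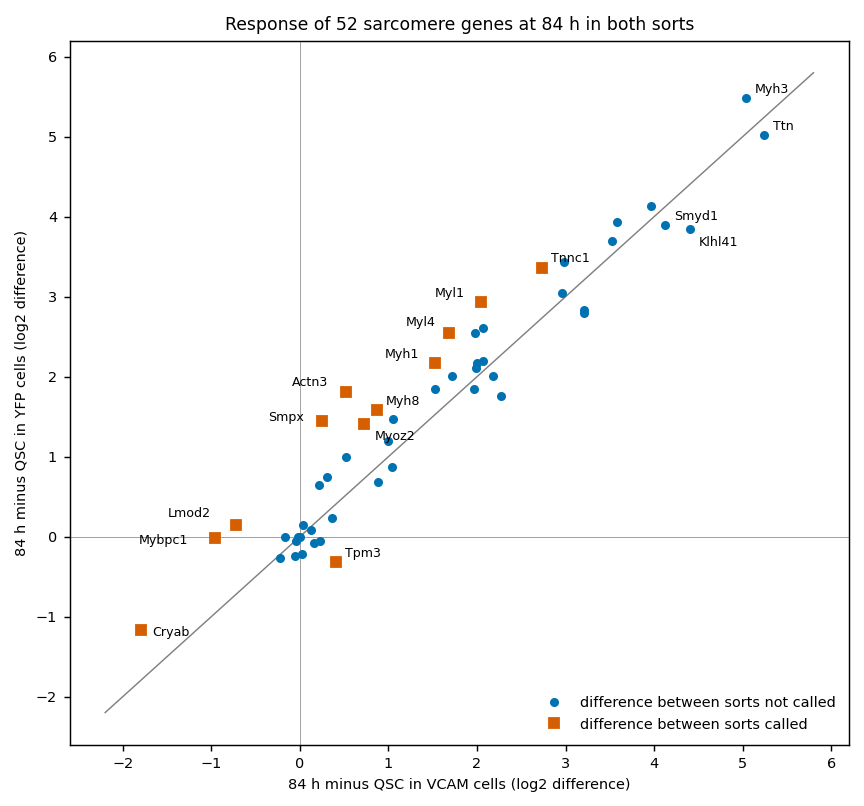
Change of the 52 members from QSCs to 84 h (log2 difference) in VCAM cells (horizontal axis) and YFP cells (vertical axis), with a point for each gene, the line of equality in grey, and orange squares where the difference between the sorts was called. Myl1, Myl4, Actn3 and Smpx lie above the line, and Tpm3 lies below it.

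Old mice were compared with young ones to ask how age alters QSCs and their response. In VCAM QSCs 3 members were called lower in old mice, beside 4.7% of all genes, and 1 higher, beside 3.04%. Without the fold threshold 8 were lower and 15 higher (21.3% and 16.7% of all genes). Actc1 was at 7.90, 7.60 and 7.66 in old and at 8.86, 8.98 and 8.86 in young QSCs, a difference of -1.18 (SE 0.07, limma adjusted p = 2.6e-13). Actn3 was at 9.84, 9.89 and 9.96 against 10.96, 10.93 and 11.04, a difference of -1.08. Pdlim3 was at 8.14, 7.96 and 8.23 against 8.83, 8.82 and 8.98. Tpm3 was higher by 0.61, but not with quantile normalization (0.53) or with its probe sets averaged (0.38). In the same QSCs 6 of 12 smooth muscle and pericyte markers were lower in old mice, with means on the arrays of 9.02 to 9.06 against 9.56 to 9.63. Satellite cell markers were called lower in 4 of 12 cases, with means of 11.54 to 11.58 against 12.06 to 12.11. Of 9 fibroblast markers 4 were higher and 3 lower. The part of these markers' cells in the members' differences was not tested.

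At 60 h 8 members were called lower in old than in young VCAM cells, beside 0.657% of all genes, of which 4.75% were higher. By adjusted p alone, 27 members were lower and 2 higher (13.7% and 14.2% of all genes). Ttn was at 9.55, 9.55 and 9.64 in old and at 10.89, 10.93 and 11.01 in young cells, a difference of -1.36 (SE 0.05, limma adjusted p = 2.1e-17). Smyd1 was at 6.70, 6.67 and 6.68 against 7.96, 7.89 and 7.98, a difference of -1.26. Myh3 was at 6.83, 6.80 and 6.95 against 7.69, 7.86 and 7.98. No array of old cells reached the young range in these 3 genes.

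The other 5 were Tnnt3, with a difference of -0.95, Tnni2 with -0.76, Mylpf with -0.70, Xirp1 with -0.66 and Tnnt1 with -0.63. Mylpf was not called without young 60 h array 3 (-0.58), nor Tnnt1 without old 60 h array 1 (-0.58). Tnnt3 was at 8.10, 8.15 and 8.31 in old and at 9.15, 9.16 and 9.10 in young cells. Actc1, the member with the largest deficit in old QSCs, was at 9.67, 9.73 and 9.56 in old and 9.90, 9.97 and 9.94 in young cells at 60 h, a difference of -0.28, which was below 1.5-fold.

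Markers of other cells also differed between the ages at 60 h. All 12 macrophage markers were called higher in old cells, with means on the arrays of 9.86 to 9.95 against 7.97 to 8.10. Of 9 fibroblast markers 6 were higher, with means of 10.27 to 10.35 against 9.37 to 9.51, as were 7 of 10 endothelial and 5 of 12 smooth muscle and pericyte markers. Satellite cell markers were called higher in 3 of 12 cases, with means of 10.36 to 10.41 against 9.95 to 10.05. The part of other cells in the members' lower values was not tested.

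From QSCs to 60 h 7 members rose in old cells, beside 17.8% of all genes, and 6 fell, beside 11.7%. At any fold change, these were 12 and 23 (29.9% and 39.3%). All 7, which were Ttn, Actc1, Tpm1, Tnnt2, Myh3, Klhl41 and Tpm2, were among the 17 that had risen in young cells by 60 h. For 13 of those 17 the old 60 h mean lay between the young means at 36 and 60 h, and for Lmod3, Mylpf, Tnnc1 and Tnni2 it lay below the young mean at 36 h. Being chosen as high in young cells at 60 h favours lower values in old cells, and among all 3312 genes called higher there, 74.5% had the old mean between both young means. Over all members the old mean was below the young mean at 60 h for 44 of 52, beside 61.7% of all genes.

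The difference between the signed responses of old and young cells at 60 h was called for 13 members. Of these 10 were lower in old cells (2.16% of all genes were) and 3 higher (6.81%). Without the fold threshold these were 24 and 5 (12.6% and 18.7%). Ttn and Tnnt3 differed most, each by -1.47. Ttn rose in old cells by 2.63, beside 4.10 in young cells, and Tnnt3 had means of 8.34 in old QSCs and 8.19 at 60 h, a change that was not called. Actc1 responded more in old cells, by 0.90, after its lower start. The comparisons of old and young cells share the QSC and 60 h arrays of young VCAM cells with the time course.

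**Figure D5:**
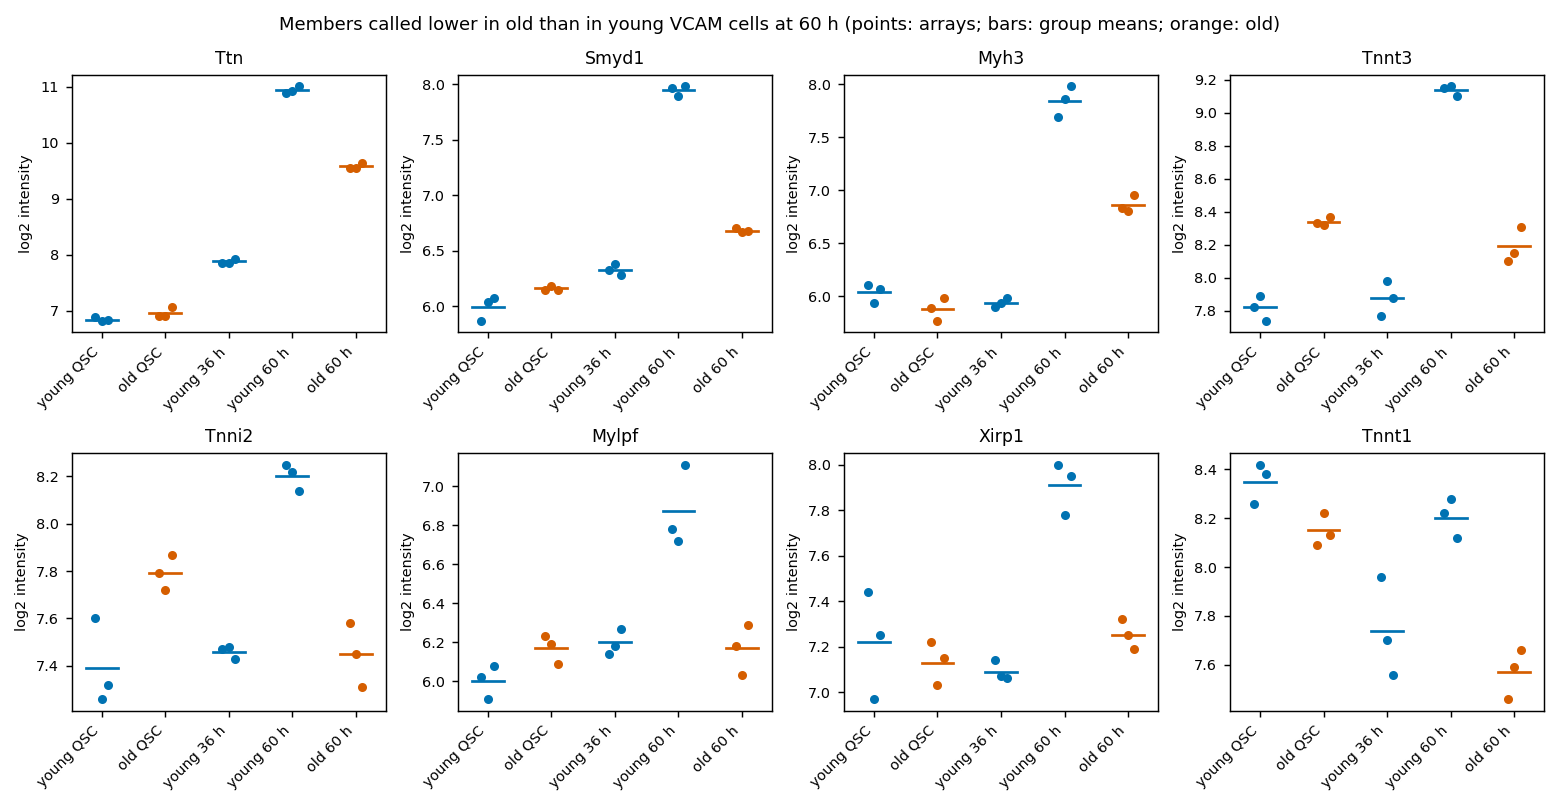
Log2 intensity (vertical axes, a separate range for each gene) of the 8 members called lower in old than in young VCAM cells at 60 h, in 5 groups (horizontal axes), with a point for each array and bars at group means, orange for old mice. In Ttn, Smyd1 and Myh3 the old 60 h arrays lie between the young 36 h and young 60 h arrays.

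Other genes of the same structures were described as a wider list of 45, which holds further Z disc, M band and costamere proteins, cardiac isoforms and chaperones. Of these 15 were called higher at 84 h in VCAM cells and 6 lower, beside 16.4% and 11.2% of all genes. In YFP cells 16 and 5 were, beside 17% and 11.2%. The medians were 0.11 and 0.27. Klhl31, a Kelch protein of muscle, rose by 2.40 and Trim55, a ubiquitin ligase that binds titin at the M band, by 2.07 in VCAM cells. Bag3, the co-chaperone that clears damaged filamin, fell from 13.10 in VCAM QSCs to 11.04 at 36 h and 10.21 at 84 h. Nebl, a small nebulin relative of the heart, fell by 2.08 at 84 h.

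Counterparts of the sarcomere proteins in the ordinary cytoskeleton form a list of 17. Of these 8 were called higher and 2 lower in VCAM cells at 36 h, beside 13.2% and 9.72% of all genes, and 7 and 1 at 84 h, beside 16.4% and 11.2%. In YFP cells 6 were called higher at 36 h, beside 10.1% of all genes, and 5 higher and 2 lower at 84 h, beside 17% and 11.2%. Actn1, the alpha-actinin of stress fibres, rose by 1.69 at 36 h and was 1.79 above QSCs at 84 h, and Nes, which encodes the intermediate filament protein nestin, rose by 2.31 at 60 h and 2.72 at 84 h.

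Of 10 myogenic factors, regulators of differentiation and fusion, 3 were called higher and 1 lower at 60 h in VCAM cells. The shares of all genes were 16.6% and 12.6%. At 84 h 7 were called higher in each sort, beside 16.4% of all genes in VCAM and 17% in YFP cells. In YFP cells 4 were already called higher at 36 h, beside 10.1% of all genes. The fusion protein gene Mymk rose from 8.19 in VCAM QSCs to 9.59 at 60 h and 12.03 at 84 h, and Mef2c, a factor that binds MEF2 sites, was at 8.07 in QSCs, 7.11 at 60 h and 8.87 at 84 h. Between old and young cells at 60 h, Myog, the transcription factor of terminal differentiation, differed by -0.70, at 8.41 against 9.11. It was already lower in old QSCs, at 6.71 against 7.75. Of 18 other genes of the muscle fibre 8 were called higher at 84 h in VCAM cells and 1 lower, beside 16.4% and 11.2% of all genes. Eno3, the muscle enolase, rose by 4.43 at 60 h, Srl, a calcium-binding protein of the sarcoplasmic reticulum, by 3.04 at 84 h, and Pygm, the muscle glycogen phosphorylase, fell by 2.74 at 60 h.

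The genes outside the members whose profile over the 10 group means was most like the members' mean profile were Txlnb (Pearson's r 0.988), Cacna1s (0.981), Hjv (0.981), Mymx (0.978), Nrap (0.977), Exoc3l (0.974), Ppfia4 (0.968), BC034090 (0.967), Gbp9 (0.967), Kif26b (0.965), Klhl31 (0.964) and Shisal1 (0.964). These correlations describe 10 means that share groups and normalization. Hjv, for instance, was at 6.53 in VCAM QSCs and 7.71 at 84 h, and at 6.66 and 8.16 in YFP cells. Cacna1s, the calcium channel of the transverse tubule, moved less, from 6.28 to 6.80 in VCAM cells.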

How the data were processed

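Satellite cells were sorted from mouse hindlimb muscle and their RNA was labelled and hybridised, with 3 arrays in each of 10 groups. The authors normalized the arrays with Affymetrix Expression Console and RMA and deposited 1 table of log2 intensities. For the versions of both, the label notes give none. Among its 35556 probe sets, the platform annotation gives 21789 a single gene symbol, 1621 several and 12146 none. Array medians were 7.03 to 7.16, and arrays of a group correlated at 0.996 to 0.9983. The number of arrays limits the precision, and no detection calls were used. For each of 19938 genes the brightest single-gene probe set was kept, with no filter on dim genes. Of the 52 members, Tpm3 and Tmod1 had several probe sets. Samples were grouped by their labels. A linear model of the 10 group means over all 30 arrays was fitted (limma 3.58.1, lmFit followed by eBayes, under R 4.3.3, with 20 residual degrees of freedom), and p-values were adjusted over all genes by Benjamini-Hochberg. The scripts were tested on simulated data. Differences within an array were compared by exact permutation. Per-array values were given for contractile isoforms and for the members with the largest changes, and at most 4 genes were named per other list and comparison by the size of their change, besides marker genes and those named for context after their values were seen. The members and gene lists were chosen with earlier results of these data known. Promoter sequences are from RefSeq, GRCm38.p6. Alternatives were centring arrays on their medians, quantile normalization, leaving out genes not above log2 7 on at least 3 arrays, averaging probe sets, fitting the compared groups alone, a replicate block, no fold threshold and leaving out each array.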

Additional observations from a re-analysis of the deposited data

Results flagged for a closer look

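A test of the difference between the responses of 2 groups picked out the following members. For the response from QSCs to 60 h in old minus young VCAM cells, it was -1.47 for Ttn, -1.47 for Tnnt3, -1.43 for Smyd1, -1.16 for Tnni2, -0.98 for Tnnc2, -0.90 for Tnnc1, -0.87 for Mylpf, -0.85 for Neb, -0.83 for Myh3 and -0.73 for Klhl41, all on the log2 scale. It was 0.59 for Actn3, 0.90 for Actc1 and 0.97 for Cryab. These differences are signed, and for Cryab, which fell on activation, a positive value is a smaller fall in old cells. Actn3 was not called with centred arrays, with quantile normalization or on leaving out any 1 of 3 arrays (0.56 to 0.57). In this comparison 11 of 12 macrophage markers had a signed response called higher in old cells, beside 6.81% of all genes. So had 9 of 12 smooth muscle and pericyte, 7 of 12 satellite cell, 6 of 10 endothelial and 4 of 9 fibroblast markers. Macrophage marker means were 9.86 to 9.95 on the old 60 h arrays and 7.97 to 8.10 on the young ones. The part of all these markers' cells was not tested.

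For the response from QSCs to 84 h in VCAM minus YFP cells, the difference was -1.29 for Actn3, -1.19 for Smpx, -0.95 for Mybpc1, -0.88 for Myl1, -0.87 for Lmod2, -0.86 for Myl4, -0.71 for Myh8, -0.69 for Myoz2, -0.64 for Myh1, -0.64 for Tnnc1 and -0.62 for Cryab. It was 0.73 for Tpm3. The sign is that of the response, and Mybpc1, Lmod2 and Cryab were called lower at 84 h than in VCAM QSCs. Cryab, Myh1 and Tnnc1 were not called with centred arrays or without certain single arrays (-0.58 for Cryab, -0.57 to -0.55 for Myh1, -0.58 to -0.56 for Tnnc1), nor Tpm3 with its probe sets averaged. In the same comparison the signed response was called lower in VCAM cells for 7 of 12 smooth muscle and pericyte markers (median -0.63). The same held for 9 of 12 macrophage markers (median -0.67) and 4 of 12 satellite cell markers, and the part of all these markers was not tested.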

How the results depend on the processing

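Of 38 counts of members called, 19 comparisons in each direction, 0 moved by more than 1.5 times with dim genes left out, with the compared groups alone or with the replicate block. Same-numbered arrays of different groups had a mean correlation of deviations of 0.035, and 27 of 135 pairs exceeded 0.1, so the numbers were not taken as a pairing. Of the 52 members 40 passed the filter on dim genes. With arrays centred on their medians, the members higher in VCAM than YFP QSCs numbered 1, those lower at 60 h 1, and the higher responses at 84 h in VCAM cells 2. With quantile normalization the last count was 3. With probe sets averaged it was 0, as was the count of members higher in old QSCs, and Tmod1 was no longer called at 84 h in either sort (0.42 and 0.38) or between the sorts at 36 h (-0.37). In YFP cells at 84 h, Ldb3 was not called with centred arrays (0.58), nor Ckm (0.46) and Myom1 (0.57) with quantile normalization, which also left out Tpm2 in old cells at 60 h (0.51). Pdlim3 in old cells at 60 h was not called on leaving out any 1 of 3 arrays (-0.58 to -0.54). Leaving out 1 array gave 1 to 2 members higher in VCAM than YFP QSCs (1 without VCAM QSC array 2 or YFP QSC array 2). It gave 0 to 1 at 36 h (0 without YFP 36 h array 3) and 1 to 3 lower at 60 h (1 without YFP 60 h array 2 or 3). The higher responses at 84 h in VCAM cells numbered 1 to 3 (3 without VCAM QSC array 1, 2 without YFP QSC array 1 or YFP 84 h array 3).

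With centred arrays the median change of all genes was -0.148 for YFP cells at 36 h (-0.059 as reported), -0.142 at 84 h (-0.08) and -0.121 for old against young cells at 60 h (-0.048). Without the fold threshold 30 of the 38 counts moved. They became 11 higher and 16 lower at 36 h, 14 lower at 60 h, 27 and 4 from 36 to 60 h and 1 lower from 60 to 84 h in VCAM cells. In YFP cells they became 11 and 14 at 36 h, 11 lower at 60 h, 4 lower at 84 h, 8 lower from 36 to 60 h and 3 lower from 60 to 84 h. Between VCAM and YFP cells they were 6 and 13 in QSCs, 4 and 23 at 36 h, 2 and 13 at 60 h, 2 and 29 at 84 h and 6 and 21 for the responses. By age they were 15 and 8 in QSCs, 2 and 27 at 60 h, 12 and 23 from QSCs to 60 h in old cells and 5 and 24 for the responses. More genes pass because this setting asks for no size of change.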
